A study of Sus scrofa with 9 samples.

Results

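The array carried 358 antisense probes among its 60889 non-control probes. An antisense probe here is a 60-base oligo written on the strand opposite to a manually annotated pig transcript, and it was recognised by the word antisens at the start of its name. Each of the 358 had a sense probe named for the same transcript, and each was the exact reverse complement of that sense probe. The array held 425 sense probes of manually annotated transcripts in all.

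The study profiled testicular biopsies of boars on 9 single-colour arrays, with 3 arrays in each group. Control arrays came from boars with normal semen and a 2n=38,XY karyotype. The oligospermic group was a boar with few spermatozoa and a 2n=38,XY karyotype, and the t(1;14) group was a severely oligo-astheno-teratospermic boar whose cells carried trcp(1;14), a reciprocal translocation between chromosomes 1 and 14. The oligospermic and t(1;14) groups were 1 animal each, sampled in separate biopsies and extractions, and the sources did not say which control boar each control array held. The tests below therefore measured the spread between arrays, which may be technical, and compared these biopsies rather than populations of animals. In whole biopsies, fewer cells of a type and less RNA per cell cannot be told apart.

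Antisense transcription is the copying of the strand opposite to a gene, and it is widespread in the testis. Antisense RNAs can overlap the ends of a coding gene, run through the whole of it, or simply be the coding transcript of a neighbour that faces the other way. On a one-colour array, an antisense probe gives signal when labelled nucleic acid of the opposite strand binds it, so what it reads depends on the strand of the labelled product. The paper states that the samples were labelled and made into cDNA, a DNA copy. The strand of the labelled product was not given, and antisense names the probe's orientation below and not a measured strand of RNA.

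The deposited files gave these transcripts no gene names, so names were taken from the sequence. A member was linked to a gene when the sense probe of its transcript shared at least 25 unbroken bases with another probe that carried a gene name. This linked 133 members to 67 RefSeq symbols, and 164 members to any other probe outside the manually annotated set. In the RefSeq table of Sscrofa11.1, the 133 members all belonged to genes of chromosome 7, and the symbols included the class I and class II SLA genes, which encode the antigen-presenting molecules of the pig. Neither chromosome of the translocation was among them. The 358 probes held 283 distinct sequences, since 124 of them shared a sequence with at least 1 other member, in 1 case 7 members. Members with 1 sequence measured the same target and were not independent.

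The sequences below were chosen because the called or brightest antisense probes carried them, and they are written 5′ to 3′. Capitals mark the bases shared, on the complementary strand, with another probe of the array that carried a gene name. The pair for AGPAT1, an acyltransferase of phospholipid synthesis, is shown on both strands, and its antisense sequence was present as 3 spots. The sequence of OTTSUST00000000895 belonged to PPP1R11, an inhibitor of protein phosphatase 1, that of OTTSUST00000000704 to the zinc transporter SLC39A7, and that of OTTSUST00000001125 to a probe the array design named MIC-2, a relative of the MHC class I genes. The last 2 had no link to a named gene.
antisens_OTTSUST00000000586 (AGPAT1): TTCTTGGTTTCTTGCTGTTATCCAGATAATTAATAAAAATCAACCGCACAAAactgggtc
OTTSUST00000000586 (AGPAT1, sense): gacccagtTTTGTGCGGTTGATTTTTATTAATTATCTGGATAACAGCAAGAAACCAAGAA
antisens_OTTSUST00000000895 (PPP1R11): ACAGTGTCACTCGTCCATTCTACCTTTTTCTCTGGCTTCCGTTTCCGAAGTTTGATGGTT
antisens_OTTSUST00000000704 (SLC39A7): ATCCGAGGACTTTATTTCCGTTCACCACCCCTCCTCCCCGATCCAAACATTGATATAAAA
antisens_OTTSUST00000001125 (MIC-2): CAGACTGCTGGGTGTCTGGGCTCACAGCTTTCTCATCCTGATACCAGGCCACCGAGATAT
antisens_OTTSUST00000000723: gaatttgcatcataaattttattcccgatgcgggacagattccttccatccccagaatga
antisens_OTTSUST00000000695: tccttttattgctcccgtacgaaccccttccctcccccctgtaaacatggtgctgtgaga

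A second set shows an antisense probe that shared bases, in the same orientation, with the sense probe of another transcript. That of OTTSUST00000000901 shared 52 bases with the sense probe of OTTSUST00000000894, and capitals mark that run in both. It also shared 52 bases with the sense probe of OTTSUST00000000893, which is not shown.
antisens_OTTSUST00000000901: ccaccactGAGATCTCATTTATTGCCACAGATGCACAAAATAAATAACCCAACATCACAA
OTTSUST00000000894 (sense): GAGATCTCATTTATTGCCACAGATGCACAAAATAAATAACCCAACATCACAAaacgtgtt

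Many antisense probes shared a sequence feature. The letters TTTATT, the reverse complement of the polyadenylation signal AATAAA, were found in 84 of the 358 members, or 23.5%, against 4.35% of all 60889 probes. In the reverse orientation, AATAAA itself was found in 4.19% of members and in 11.4% of all probes. As each member is the reverse complement of its sense probe, 23.5% is also the share of the sense partners with AATAAA, beside that 11.4%. The contrast with 4.35% is thus in part one of orientation. TTTATT was present in 15.6% of the members detected on all 9 arrays and in 29.6% of those detected on none. The median GC content was 46.6% in the former and 45.0% in the latter, with the same range of 35.0% to 60.0%.

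Signal was read from each spot after the scanner software had subtracted the background, and a probe was counted as detected where that software marked it well above background. On the control arrays 1 to 3, 102, 113 and 131 antisense probes were detected. On the oligospermic arrays the numbers were 101, 112 and 139, and on the t(1;14) arrays 114, 87 and 106. The share thus lay between 24.3% and 38.8%, below the 73.2% to 80.4% of their sense partners and the 60.9% to 66.7% of all probes. Of the members, 179 were detected on no array, 64 on all 9 and 115 on some, whereas 238 sense partners were detected on all 9 and 50 on none.

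The t(1;14) arrays had 102 ± 13.9 antisense probes detected (SD, n = 3), the controls 115 ± 14.6 and the oligospermic arrays 117 ± 19.6, and the groups overlapped. Neither the t(1;14) and control groups nor the t(1;14) and oligospermic groups differed beyond this spread (difference -13.0, two-sided exact permutation p = 0.5, and -15.0, p = 0.5, each 0.75 after Benjamini-Hochberg adjustment over 6 tests). For oligospermic and control the difference was 2.00 (exact p = 1.0). With 3 arrays a group, such a test cannot give a p below 0.1. Each slide held 1 array of each group, and within slides 1, 2 and 3 the t(1;14) array had 15, 7 and 17 fewer antisense probes detected than the control array, and 14, 6 and 25 fewer than the oligospermic array. Over all probes detected, the t(1;14) minus control difference was -1635, 1949 and -631 on these slides, and the t(1;14) minus oligospermic difference -1151, 1760 and 329. For the sense partners these differences were -11, 3 and -12, and -9, 6 and 0. With the software's looser mark for a spot that is positive and significant, the mean difference over the 3 arrays turned to 7.67 against control and 0.33 against oligospermic, so no direction is read from these counts. The part of array-wide detection in the antisense counts was not tested.

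One slide stood apart for these probes. The 64 antisense probes detected on all arrays held 51 distinct sequences. Of these 64 probes, 37 (57.8%) had their lowest normalized signal on slide 1 in each of the 3 groups. The same held for 5 of 47 sense partners (10.6%) and for 13.6% of the 33676 probes of the array detected everywhere. Relative to the other arrays of their group, the slide 1 arrays had a median antisense difference on the log2 scale of -0.51 in control, -0.42 in oligospermic and -0.24 in t(1;14). As each group had 1 array on that slide, the results below are also given without it where a call changed. What set slide 1 apart was not tested.

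Antisense signal was found opposite both bright and dim sense signal. All levels given from here on are log2 processed signal, quantile normalized over the 9 arrays. Probes differ in how they hybridize, so a level of an antisense probe against its sense probe describes the 2 spots and is no ratio of RNA amounts. Of 32 members whose sense probe had a mean level of at least 12, 34.4% were detected on all 9 arrays, and of the 76 with a sense level from 9 to 12, 22.4%. For sense levels from 6 to 9 it was 12 of 100 members, and for dimmer ones 24 of 150. Over the 47 pairs detected on all arrays in both orientations, antisense and sense levels correlated with a Pearson r of 0.111 and a Spearman rho of 0.088, given as a description across probes that share the same arrays and in part the same sequence.

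The reverse pattern also occurred. Of the 64 members detected on all arrays, 6 had a sense partner detected on none and 11 a sense partner detected on some arrays. Among the 6 was the antisense probe of ZBTB12, a zinc finger gene, at a mean level of 6.34 against 1.94 for its sense probe. The pair of identical antisense probes of OTTSUST00000000888 and OTTSUST00000000889 stood at 7.35 and 7.32, against 1.83 and 1.65 for the sense spots.

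The brightest antisense probe was that of OTTSUST00000000695, whose sequence is given above. Its levels were 11.51, 11.50 and 11.96 in control, 11.69, 11.85 and 12.02 in oligospermic and 11.74, 11.71 and 11.87 in t(1;14), with a sense probe at 10.92 to 11.68. The groups overlapped and the antisense probe passed the test in none of the comparisons. SLC39A7, which moves zinc out of the endoplasmic reticulum and Golgi, also had a bright antisense probe, at 9.20 to 9.72 in control, 9.42 to 9.94 in oligospermic and 9.87 to 9.96 in t(1;14), beside a sense probe at 10.07 to 10.51. Its difference between t(1;14) and control was 0.44 ± 0.16 (log2, SE, adjusted p = 0.054).

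Brighter than that of SLC39A7 was the antisense probe of OTTSUST00000000901, with levels of 11.07, 11.82 and 11.69 in control, 11.72, 11.90 and 12.03 in oligospermic and 10.92, 10.68 and 10.83 in t(1;14). Its own sense probe was well above background on 1 of 9 arrays. The sense probe of OTTSUST00000000894, which shares the 52 bases marked above, had 10.88, 11.72 and 11.73, then 11.64, 11.81 and 12.04, then 10.99, 10.62 and 10.78 on the same arrays. The 2 spots thus ran within 0.19 of each other on every array, and the transcript annotated as OTTSUST00000000894 has its sense probe in the same orientation as this antisense probe. In 4 members in all, the antisense probe shared at least 25 bases with a probe of the same strand, and these were the probes of OTTSUST00000000901, OTTSUST00000000894, OTTSUST00000000550 and OTTSUST00000000574.

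Signal from the antisense probe of OTTSUST00000000717 averaged 9.35, and the sense probe was detected on 3 of 9 arrays. The 5 identical antisense probes of OTTSUST00000000461, OTTSUST00000000463, OTTSUST00000000464, OTTSUST00000000465 and OTTSUST00000000466, whose sense probe shares its sequence with an array probe described as C6orf25-like, averaged 8.99 to 9.13. For the spot of OTTSUST00000000461 the levels were 8.25, 10.15 and 10.08 in control, 8.64, 10.12 and 10.31 in oligospermic and 8.52, 7.70 and 8.39 in t(1;14). The lowest control, oligospermic and t(1;14) values were those of slide 1. The difference between t(1;14) and control did not pass the test (log2 -1.29 ± 0.54, adjusted p = 0.0899), nor did that between t(1;14) and oligospermic (-1.49 ± 0.47, adjusted p = 0.0297).

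Among the 47 pairs measured everywhere, the antisense spot was dimmer than the sense spot in all but 6, with a median difference of -2.90 on the log2 scale before normalization and a highest value of 1.91. The largest gap was that of OTTSUST00000000562, whose sense spot was saturated on 7 of 9 arrays, so that its difference of -11.4 is a bound and the true gap at least that large. OTTSUST00000001464 had -10.1, likewise a bound on the 1 array where its sense spot was saturated. BRD2, a bromodomain protein that binds acetylated histones and is strongly expressed in male germ cells, followed with -8.65 and -8.64 at its 2 identical antisense probes, and OTTSUST00000000519 with -8.04. The BRD2 antisense levels were 5.48 to 6.98 in control, 5.84 to 6.26 in oligospermic and 6.32 to 6.48 in t(1;14), beside sense levels of 14.52 to 15.29. The control values spanned those of both other groups, and no antisense difference of BRD2 passed the test.

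The 6 pairs with antisense above sense were those of OTTSUST00000000542, OTTSUST00000000696, OTTSUST00000000673, OTTSUST00000000724, OTTSUST00000001115 and OTTSUST00000000695, none of which was linked to a named gene. For OTTSUST00000000542 the differences were 2.17 ± 0.32 in control, 2.49 ± 0.65 in oligospermic and 1.06 ± 0.60 in t(1;14) (SD, n = 3). The antisense level of that probe differed by log2 -0.01 ± 0.24 between t(1;14) and control (adjusted p = 0.976), while its sense level was 1.04 ± 0.22 higher in t(1;14) (adjusted p = 0.00952). For OTTSUST00000000673 the difference was 1.07 ± 0.62 in control, 1.94 ± 0.68 in oligospermic and 0.29 ± 0.29 in t(1;14). The pair of OTTSUST00000000695 had 0.17 ± 0.17 in control, 0.89 ± 0.18 in oligospermic and 0.78 ± 0.11 in t(1;14).

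The median antisense minus sense difference over the 47 pairs was -3.70, -3.02 and -3.04 on the control arrays, -3.29, -2.76 and -2.65 on the oligospermic arrays and -2.96, -3.12 and -2.76 on the t(1;14) arrays. The groups overlapped. The difference between t(1;14) and control was 0.31 (two-sided exact permutation p = 0.4, 0.75 adjusted over the 6 tests), that between oligospermic and control was 0.36 (exact p = 0.3, adjusted 0.75), and that between t(1;14) and oligospermic was -0.05 (exact p = 0.9, adjusted 1.0). Within slides, t(1;14) stood above control by 0.58, 0.27 and 0.09 and oligospermic above control by 0.41, 0.26 and 0.40 on slides 1 to 3, while t(1;14) against oligospermic gave 0.17, 0.01 and -0.31.

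For the test of each probe, limma was fitted over all probes detected on at least 2 of 3 arrays of at least 1 of the groups compared, and a probe was called where its log2 change was at least 2 in size and its Benjamini-Hochberg adjusted p no more than 0.01. Between t(1;14) and control, 118 antisense probes were tested and 1 was called, 0.847% of them, against 5.61% of the 40643 probes tested. Between oligospermic and control 1 of 120 was called, against a background of 0.073% of 39713 probes. Between t(1;14) and oligospermic 8 of 124 were called, all lower in t(1;14) and with 6 distinct sequences, which was 6.45% against a background of 6.82%. Without the arrays of slide 1 the counts were 3, 0 and 8. The 3 and 8 were then 2.59% and 7.02%, against backgrounds of 5.71% and 7.3%. A share close to the background is no result about antisense probes as a class, and the comparisons share samples.

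At a log2 change of at least 1 with the same adjusted p, directions could be set beside the background. In t(1;14) against control, 23 antisense probes with 12 distinct sequences were lower, or 19.5%, against a background of 11.7%, and 1 was higher, or 0.847%, against 7.45%. In t(1;14) against oligospermic, 29 with 18 distinct sequences were lower, or 23.4%, against 13.8%, and 4 were higher, or 3.23%, against 11.1%. A probe that passed the filter through its bright group alone had to differ, so these shares support nothing on their own and the 64 antisense probes detected on all arrays are described separately. By the same rule, 10 of the 64 (15.6%) were lower and 0 higher in t(1;14) than in control, against 11.7% lower and 7.36% higher of the 33676 probes of the array detected everywhere. Against oligospermic 14 (21.9%) were lower and 2 (3.12%) higher, against 13.4% and 10.3%. Their median log2 difference was -0.47 between t(1;14) and control, against 0.15 for those 33676 probes, and 46 of 64 (71.9%) were below 0, against 42.2%. Of the 47 sense partners detected everywhere, 70.2% were also below 0, with a median of -0.31. Between t(1;14) and oligospermic the antisense median was -0.74, against 0.14 for all probes and -0.31 for the sense partners. Between oligospermic and control it was 0.16, with 12 of 64 below 0, against -0.00 for all probes and -0.05 for the sense partners. Leaving out 1 array at a time moved this last median between -0.01, without control array 1, and 0.33, without oligospermic array 1, and it was 0.05 and 0.02 without oligospermic arrays 2 and 3 and 0.29 without control array 2, so no direction is read from it. For t(1;14) the same fits gave medians of -0.65 to -0.43 against control and -0.85 to -0.61 against oligospermic. With normexp background, a model that keeps dim signals positive, the medians were -0.31 and -0.40, against 0.10 for all probes in both. The 64 members held 51 distinct sequences, so copies of the same sequence were counted more than once in these shares and medians. Antisense probes were also dimmer. Between t(1;14) and control, the median level was 5.035 over the members tested and 7.78 over all probes tested. The sets compared were not matched for level.

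Cell markers moved between the same biopsies. Of 6 spermatid markers measured, 4 were lower in t(1;14) than in control by the rule just given, and the log2 of their summed level was 17.3 to 17.5 in t(1;14), 18.1 to 18.2 in control and 18.1 to 18.2 in oligospermic. Of 6 Leydig cell markers, 4 were higher in t(1;14), with a log2 sum of 17.11 to 17.25 against 15.99 to 16.05 in control and 15.66 to 16.08 in oligospermic. The spermatocyte sum was 14.2 in t(1;14), 14.0 to 14.3 in control and 13.9 to 14.0 in oligospermic, and of 4 markers only SPO11 passed, lower in t(1;14) than in control (log2 -1.03, adjusted p = 0.00826) and higher than in oligospermic (1.11, adjusted p = 0.000558). The Sertoli cell sum was 16.2 to 16.3 in t(1;14) and 16.2 to 16.3 in control, with 1 of 7 markers lower and 1 higher in t(1;14) than in control, and likewise than in oligospermic. Of 3 immune markers measured, CD14 was higher in t(1;14) than in control, CD14 and CD163 were higher than in oligospermic (CD163 by 1.05, adjusted p = 0.00122), and CD3E was detected on no array. The log2 of the immune sum was 7.40 to 7.73 in t(1;14), 6.58 to 7.20 in control and 6.27 to 6.56 in oligospermic. Between oligospermic and control no marker of the 5 lists passed that rule. The part of these shifts in the antisense differences was not tested.

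AGPAT1 makes phosphatidic acid, a precursor of membrane phospholipids and triglycerides. Its 3 antisense spots are copies of the sequence printed above. The spot of OTTSUST00000000587 had levels of 7.99, 8.69 and 8.59 in control, 8.49, 8.87 and 8.99 in oligospermic and 6.60, 6.65 and 6.61 in t(1;14), and those of its sense probe were 12.28 to 12.66, 12.42 to 12.57 and 12.29 to 12.53. The t(1;14) antisense values lay below every other array, while the sense values of the 3 groups overlapped. The antisense signal was lower in t(1;14) than in oligospermic by a log2 change of -2.16 ± 0.14 (adjusted p = 5.2e-05), and the spots of OTTSUST00000000588 and OTTSUST00000000586 gave -2.23 ± 0.13 and -2.48 ± 0.20. With normexp background the 3 spots gave -1.66, -1.72 and -1.98 and missed the fold limit, with adjusted p of at most 4e-05. The sense difference at the same position was -0.08 ± 0.10 (adjusted p = 0.527). Against control the 3 antisense spots gave -1.67 to -1.81, with adjusted p of 0.00064 to 0.00161, and so missed the fold limit of 2. The spots of OTTSUST00000000587 and OTTSUST00000000588 passed it without the arrays of slide 1 (log2 -2.03 and -2.04, adjusted p = 0.00236 for both) and without control array 1 (-2.02 and -2.01, adjusted p = 0.00046 for both). The spot of OTTSUST00000000586 on oligospermic array 1 bore an outlier flag and stood at 9.64 where its copies stood at 8.49 and 8.56, and without that array its change was -2.25.

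PPP1R11 is an inhibitory subunit of protein phosphatase 1 and is abundant in germ cells. Its antisense probe had levels of 7.05, 9.43 and 6.83 in control, 7.55, 7.59 and 7.79 in oligospermic and 5.38, 5.46 and 5.39 in t(1;14). Its sense probe had 9.14, 9.99 and 9.61, then 9.77, 9.93 and 10.18, then 8.11, 8.09 and 8.02. In both orientations the t(1;14) arrays lay below all others, and control array 2 was far above the other controls in antisense. Antisense fell in t(1;14) against oligospermic by a log2 change of -2.24 ± 0.10 (adjusted p = 2e-05), and sense by -1.89 ± 0.13 (adjusted p = 5.4e-05). Against control, antisense differed by -2.36 ± 0.67 and did not pass (adjusted p = 0.0265), and without control array 2 the difference was -1.53 ± 0.12 with an adjusted p of 0.00083, short of the fold limit. With normexp background the antisense change against oligospermic was -1.36.

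The antisense probe of OTTSUST00000000723 differed in the oligospermic boar. Its levels were 4.95, 4.67 and 4.42 in control, 7.51, 7.18 and 7.60 in oligospermic and 4.34, 3.85 and 4.28 in t(1;14), where it was well above background on 2 of 3 arrays. The oligospermic arrays thus stood apart from all others. Its sense probe was bright and nearly level, at 14.41 to 14.62, 14.55 to 14.64 and 14.20 to 14.32. Antisense was higher in oligospermic than in control by 2.75 ± 0.19 (adjusted p = 0.0056) and lower in t(1;14) than in oligospermic by a log2 change of -3.28 ± 0.18 (adjusted p = 2.8e-05), while the sense differences were 0.07 ± 0.12 and -0.35 ± 0.09. With normexp background the antisense changes were smaller, 1.41 and -1.56. The replicate numbers of oligospermic and control coincide with the slides, and with the replicate number as a block the call against control was lost (2.75 ± 0.18, adjusted p = 0.0478, 0 antisense probes called). With that block 0 of the 39713 probes tested were called. The call was also lost without the arrays of slide 1 (2.85 ± 0.21, adjusted p = 0.0289), with no filter on dim probes (adjusted p = 0.0224), and in 5 of the 6 fits that left out 1 array (adjusted p = 0.0126 to 0.0579), all but that without control array 1.

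The MIC-2 antisense probe was the one called between t(1;14) and control. It had levels of 4.88, 5.01 and 5.03 in control, 3.70, 5.89 and 4.80 in oligospermic and 3.02, 1.37 and 1.95 in t(1;14), where it was well above background on no array. The control arrays were close together and above all t(1;14) arrays. Against the lowest level well above background on each array, or the probe's own where that was higher, it was at least 2.58-fold higher in control than in t(1;14) (adjusted p = 0.00198) and at least 2.28-fold higher in oligospermic (adjusted p = 0.00971). As it passed the filter through its bright group alone it had to differ, and it was not tested with the filter in both groups, where 0 antisense probes were called between t(1;14) and control. With normexp background the differences were -0.48 and -0.49. The sense probe was detected on 2 control arrays, 3 oligospermic arrays and no t(1;14) array. By the same bound on group means it was at least 1.68-fold higher in oligospermic than in t(1;14) (adjusted p = 0.00178). Against control the bound was 2.24-fold, but that difference did not pass (adjusted p = 0.114) and no minimum is read from it. Without t(1;14) array 3 the antisense call against control was lost (adjusted p = 0.0113), and the call against oligospermic was lost without t(1;14) array 2 or array 3 (adjusted p = 0.0265 and 0.0304), with 75th percentile scaling (0.0113), with no filter (0.0247) and with the replicate block (0.0287). Without oligospermic array 2 or array 3 the probe no longer passed the filter in that comparison and was not tested.

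Both remaining called probes had no link to a named gene. The antisense probe of OTTSUST00000000525 had levels of 5.15, 5.38 and 5.47 in control, 5.33, 5.76 and 6.10 in oligospermic and 3.67, 3.54 and 3.55 in t(1;14), where it was well above background on 1 array. It differed by -2.14 ± 0.195 between t(1;14) and oligospermic (adjusted p = 0.00018), and its copies OTTSUST00000000524 and OTTSUST00000000526 by -1.93 ± 0.215 and -1.60 ± 0.225, so that of 3 spots with 1 sequence 1 passed the fold limit. That spot missed it without oligospermic array 3 (-1.96) and with 75th percentile scaling (-1.95). It passed the filter through the oligospermic arrays alone and so had to differ, and the size of its difference rests on t(1;14) values mostly not above background, and with normexp background it was -0.62. The sense probe of OTTSUST00000000525, at 10.67 to 11.58, differed by -0.61 ± 0.14 (adjusted p = 0.00726). For the antisense probe of OTTSUST00000000581 the levels were 4.23, 4.51 and 4.04, then 3.93, 4.83 and 4.58, then 2.98, 1.60 and 2.69, the last group well above background on no array. It was at least 1.79-fold higher in oligospermic than in t(1;14) (adjusted p = 0.00465; 0.00028 without slide 1, where its log2 difference of -1.87 missed the fold limit), beside a sense difference of -0.43 ± 0.10 (adjusted p = 0.00784). It passed the filter through its bright group alone and so had to differ, was not tested with the filter in both groups or without oligospermic array 2 or array 3, and with normexp background differed by -0.29. Its call was also lost with 75th percentile scaling (-1.76), with no filter (adjusted p = 0.0129) and with the replicate block (adjusted p = 0.0154).

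In 5 members, all arrays of 1 group and none of another were well above background. They were chosen for this pattern, so their levels are a description and no test is given for the 3 not described above. These 5 were the antisense probes of OTTSUST00000001125 and OTTSUST00000000581 and those of OTTSUST00000000856, OTTSUST00000001086 and OTTSUST00000000594. The probe of OTTSUST00000000856 had 4.32, 4.55 and 5.75 in control, 4.71, 4.84 and 5.17 in oligospermic and 3.32, 2.57 and 2.91 in t(1;14), and was at least 2.41-fold higher in control and at least 2.46-fold higher in oligospermic than in t(1;14). Its sense probe, detected on all arrays, differed by -0.98 ± 0.14 and -0.80 ± 0.14. The probe of OTTSUST00000001086 ran the other way, at 2.24 to 3.39 in control and 2.56 to 3.28 in oligospermic, with no array well above background, and at 4.45, 4.24 and 4.51 in t(1;14). It was at least 1.77-fold higher in t(1;14) than in control and at least 1.63-fold higher than in oligospermic, while its sense probe was well above background on 1 array of 9. The probe of OTTSUST00000000594 was at least 1.30-fold higher in control than in t(1;14), but its groups overlapped.

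The antisense probes lower in t(1;14) were chosen for being lower and their sense partners were not. The counts below are therefore a description and no contrast of orientations. At a log2 change of at least 1, 23 members with 12 distinct sequences were lower in t(1;14) than in control. The sense partner was also lower by that rule in 5, was tested and passed neither way in 16 and was not tested in 2. Against oligospermic these numbers were 6, 20 and 3 of 29 members with 18 distinct sequences. Passing in one orientation and not in the other does not show that the 2 differ. On the log2 signal before normalization, the antisense minus sense difference itself was lower in t(1;14) than in oligospermic by 1.83 for the AGPAT1 spot of OTTSUST00000000587, and by 0.24 for PPP1R11. Both antisense probes were chosen because they were called lower in this same comparison. A lower difference was thus favoured in advance, so these 2 values are a description and no test is given for them. Over all sense partners tested, 37 of 288 (12.8%) were lower and 18 (6.25%) higher in t(1;14) than in control, close to the backgrounds of 11.7% and 7.45%. Against oligospermic 41 of 284 (14.4%) were lower and 30 (10.6%) higher, close to the backgrounds of 13.8% and 11.1%.

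By gene group, 9 members belonged to 6 immune receptor and MHC genes. The MIC-2 probe, named above only through the array design, was not among them and was counted with the unnamed members. Of the 9 members in the group, 6 were detected on no array, and that of SLA-5, a class I gene, was detected on all 9 arrays. The antisense probe of SLA-5 had 4.74, 5.21 and 5.30 in control, 4.52, 5.04 and 4.80 in oligospermic and 5.83, 5.89 and 6.02 in t(1;14), which lay above all others. It was higher in t(1;14) than in oligospermic by 1.13 ± 0.15 (adjusted p = 0.00087) and than in control by 0.83 ± 0.18 (adjusted p = 0.00933), and its sense probe by 2.05 ± 0.10 (adjusted p = 2.1e-05) and 0.98 ± 0.35 (adjusted p = 0.0569). The class II genes SLA-DQB1 and SLA-DRA, which present peptides to helper T cells, had sense probes detected on all arrays, with mean levels of 8.76 and 8.64, and antisense probes detected on none.

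The germ cell group, taken by symbol prefix, held only DDX39B, an RNA helicase of messenger RNA splicing and export that is not particular to germ cells. Its antisense probes were detected on 7 arrays and on 1 array. The former was tested and passed neither rule in any comparison. The prefixes missed MSH5, a gene of meiotic recombination, whose antisense probes were detected on 1 array and on none. No member carried a cytokine, chemokine or interferon response symbol of the prefixes searched, which missed LTB, a cytokine of the tumour necrosis factor family with 2 antisense probes detected on no array. The other 122 named members belonged to 60 genes, of which 22 members were detected on all arrays and 59 on none. Of 43 tested between t(1;14) and control, 7 (16.3%) were lower at a log2 change of at least 1 and 0 higher, beside the backgrounds of 11.7% and 7.45%. Of 42 tested between t(1;14) and oligospermic, 9 (21.4%) were lower and 1 (2.38%) higher, beside 13.8% and 11.1%. Among them, 1 of 4 antisense probes of FLOT1, a membrane raft protein, that of OTTSUST00000001009, was lower by a log2 change of -1.12 ± 0.23 between t(1;14) and control (adjusted p = 0.00892), with a sense difference of 0.02 ± 0.16, and the other 3 were detected on no array. Of the 225 unnamed members, 73 were tested between t(1;14) and control, with 16 (21.9%) lower and 1 (1.37%) higher, beside the same backgrounds of 11.7% and 7.45%. All these tested members include probes that passed the filter through 1 group alone.

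The copies of 1 sequence show how well a spot repeats. In 8 sequences, carried by 20 members, every copy was detected on all arrays, and the SD between copies on 1 array, averaged over arrays, was 0.0357 to 0.227 on the log2 scale, with a median of 0.088. Over the 64 members detected on all arrays, the scatter between arrays of 1 group included the slide 1 shift given above. No antisense spot was saturated on any array.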

How the data were processed

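Total RNA of the 9 biopsies was labelled with cyanine 3, made into cDNA and hybridized by the authors to a custom 60K porcine array. The deposited spot intensity was background-subtracted and detrended by Agilent Feature Extraction 11.5.1.1 and was not scaled across arrays. A log2 table of part of the probes, also deposited, served as an alternative only. The strand of the labelled product was not given in the sources used here.

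Processed intensities of 60889 non-control probes were log2-transformed and quantile normalized over 9 arrays. Each pair of groups was fitted on its 6 arrays, using R 4.3.3 with limma 3.58.1 and data.table (1.17.8), and p-values were adjusted over all tested probes by Benjamini-Hochberg. Testing required a spot well above background, with no outlier flag, on 2 or more of the 3 arrays in either group. The scripts were tested on simulated data. Exact permutation tests used scipy 1.17.1, with pandas 2.3.3 and numpy 2.4.6.

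Sequences were compared with an exact match of at least 25 bases. Antisense probes were named in the text where called, where among the 5 brightest, where among the 5 highest or 5 lowest antisense minus sense differences, and where detected on all arrays of 1 group and none of another, each with its sense probe. SLA-5, FLOT1, ZBTB12, DDX39B, SLA-DQB1, SLA-DRA, MSH5, LTB, OTTSUST00000000888 and OTTSUST00000000889 were named after their values were seen. The antisense members and all lists were chosen with earlier results of these data known. Cell markers were measured at the brightest probe of each symbol.

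Replicate numbers were taken as pairing the arrays where every same-numbered pair correlated above 0.1 in its deviations from the group means. This held for oligospermic and control (r = 0.493, 0.135 and 0.100), whose numbers coincide with the slides, and not for t(1;14) against control (-0.29, -0.20 and 0.14) or against oligospermic (-0.43, -0.34 and 0.12). Arrays of 1 slide correlated above 0.1 in those comparisons too (0.35, 0.11 and 0.12, and 0.50, 0.30 and 0.34), where slide as a block gave 1 and 8 called members. The permutation tests did not use the slide, and within-slide differences are given beside them. Precision is limited by the number of arrays. Alternatives changed the normalization, background, filter, block, model, threshold and arrays.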

Additional observations from a re-analysis of the deposited data

How the results depend on the processing

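Called antisense probes numbered 1 between t(1;14) and control, 1 between oligospermic and control and 8 between t(1;14) and oligospermic. With normexp background and an offset of 50 none was called (0, 0 and 0), though the AGPAT1 changes against oligospermic stayed at -1.98 to -1.66, and the cause was not tested. Calls over the whole array fell as well, from 2282 to 997, from 29 to 14 and from 2766 to 1109 in these comparisons in turn. Without a filter on dim probes the counts were 3, 0 and 8, and with the filter in both groups 0, 1 and 5. Without a filter the 3 and 8 were 0.838% and 2.23% of members tested, against 3.52% and 4.52% of all probes tested. With the filter in both groups the 1 and 5 were 0.943% and 5.32%, against 0.0426% and 5.55%. All 9 arrays in one model gave 2 for t(1;14) against control, or 1.69% against 5.87% of all probes tested. With 75th percentile scaling 5 were called for t(1;14) against oligospermic, or 4.03% against 6.85%. A fold limit of 1 gave 24 and 33 for the comparisons of t(1;14) with control and with oligospermic, and the adjusted p alone 31 and 45, or 26.3% and 36.3% of members tested against 31.2% and 49.1% of all probes tested. The replicate block gave 0 for oligospermic against control and so did slide as a block, with 0 calls over the whole array in both, and the replicate block moved no other count by over 1.5 times, giving 6 between t(1;14) and oligospermic without OTTSUST00000000581 and MIC-2. Those 6 were 4.84% of members tested, against 6.73% of all probes tested. For oligospermic against control, 8 members had an unadjusted p under 0.05. Without the arrays of slide 1, an alternative chosen after seeing the data, the counts were 3, 0 and 8. The 3 and 8 were 2.59% and 7.02% of members tested, against 5.71% and 7.3% of all probes tested. Leaving out 1 array at a time gave 0 to 5, 0 to 1 and 5 to 14. The calls of OTTSUST00000000581 and MIC-2 between t(1;14) and oligospermic were each lost without t(1;14) array 2 or 3, and neither was tested without oligospermic array 2 or 3. The 14 came without oligospermic array 1 and the 5 without oligospermic array 3, and for t(1;14) against control the 5 came without control array 1 and the 0 without t(1;14) array 3. Against oligospermic, the 14 and the 5 were 12.3% and 4.59% of members tested, beside 7.42% and 5.91% of all probes tested. Against control, the 5 were 4.31%, beside 5.99%. The 5 probes with AGPAT1, PPP1R11 and OTTSUST00000000723 sequences were called between t(1;14) and oligospermic under each alternative but normexp and, for PPP1R11, the model of 9 arrays.

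The difference in detected antisense probes turned to 7.67 for t(1;14) against control and to 0.33 for t(1;14) against oligospermic with the software's looser mark, positive and significant. Leaving out 1 array at a time gave -19.7 to -5.17 for t(1;14) against control, -8.83 to 10.2 for oligospermic against control, turning to -4.67 without control array 1 and to -8.83 without oligospermic array 3, and -23.2 to -4.17 for t(1;14) against oligospermic. The antisense minus sense difference between t(1;14) and control turned to -0.015 with the mean over pairs, and that between t(1;14) and oligospermic to 0.044 with all pairs, dim ones included. Between t(1;14) and oligospermic it was -0.28 with the median signal without background subtraction (exact permutation p = 0.1). In that comparison quantile normalized values gave -0.20 and the mean over pairs -0.24. Between oligospermic and control all pairs gave 0.15. Leaving out 1 array at a time gave 0.09 to 0.43, 0.13 to 0.55 and -0.24 to 0.081 for the 3 comparisons in turn. The last was above 0 without t(1;14) array 2 (0.042), oligospermic array 2 (0.022) or oligospermic array 3 (0.081). The cause of these shifts was not tested. Dim spots near background limit these probes, since 179 of 358 were detected on no array.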
